A study of Homo sapiens with 6 samples.

Results

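The genes examined were the ANP32 family, ANP32B, ANP32A and ANP32E, together with SET, the protein that partners ANP32 proteins on histones. These 4 genes were chosen as the target of the knockdown, its paralogs and that partner, out of 20007 protein-coding genes. The rule uses no measured value, but the genes were chosen with earlier results of these data known. For each gene, the peaks of H3K27ac (histone H3 acetylated on lysine 27) were counted and measured in its locus (the gene body plus 50 kb on each side) and in its promoter window (reaching 2500 bases either way from the canonical transcription start).

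The ANP32 proteins are small nuclear proteins with leucine-rich repeats followed by a tail rich in aspartate and glutamate. Per the study, the repeat region of ANP32B binds core histones. ANP32A and SET are parts of a complex that shields histone tails from acetyltransferases, and both also inhibit the phosphatase PP2A. ANP32E removes the histone variant H2A.Z from chromatin, and ANP32B acts as a histone chaperone. H3K27ac is a mark of active promoters and enhancers, so the width of its peaks over a gene describes how far that mark spread.

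H3K27ac was profiled by CUT&Tag, in which an antibody guides a transposase to cut and tag nearby DNA, in 2 human acute myeloid leukemia lines, Kasumi-1, known for a RUNX1::RUNX1T1 fusion, and MV4-11, known for a KMT2A fusion. Cells of each line expressed a control hairpin RNA (NC, labelled untreated) or 1 directed against ANP32B (sh-ANP32B), having been infected with lentivirus and selected with puromycin. The study made 3 hairpins against ANP32B, and which of them these libraries carried is not given in the sources used here. Each of the 4 groups had 1 peak list, called on merged replicates, without peak heights or read totals. The depth of the libraries is therefore unknown, replicate spread cannot be given, and every difference below describes these libraries only.

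The lists held 22136 to 24523 peaks on chromosomes 1 to 22, X and Y, with median widths of 742 to 1044 bases. The markers did not follow the line names. Of 5 genes typical of Kasumi-1 (RUNX1T1, POU4F1, KIT, TRH and CD34), 1 had bases under peaks at its promoter in the libraries labelled Kasumi-1, and 0 did in those labelled MV4-11. CD34 was that gene, with 180 bases in NC and 132 in sh-ANP32B. The 5 genes typical of MV4-11 (HOXA9, HOXA10, MEIS1, FLT3 and MEF2C) summed to 14949 (NC) and 14980 (sh-ANP32B) bases under the Kasumi-1 label, against 7053 and 5742 under the MV4-11 label. Most of that difference lay in HOXA9, HOXA10 and FLT3, while MEIS1 had 3103 to 3337 bases in every library. Over all coding genes with bases in both NC libraries, the median ratio of MV4-11 to Kasumi-1 was 0.669. The line names below are those of the labels. Whether cells or labels set the marker pattern was not tested, so that the line to which each result below belongs rests on the labels. Of 7 myeloid genes, 4 or 5 had bases in every library, with SPI1, the myeloid factor PU.1, between 3008 and 3127 bases, while MPO, the granule peroxidase, was at 0 in all 4. Among genes of other cell types, the lymphoid genes CD3E and PAX5 and the epithelial and liver genes EPCAM and ALB were at 0 in all 4.

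Positions are on hg38. ANP32B (ENSG00000136938.9) lies at chr9:97983341-98015943 on the plus strand, and SET (ENSG00000119335.18) on the same chromosome and strand at chr9:128683424-128696400. ANP32A (ENSG00000140350.15) lies at chr15:68778535-68820897 and ANP32E (ENSG00000143401.15) at chr1:150218417-150236156, both on the minus strand. The canonical start of SET, at base 128689222, lies inside its annotated gene body, since 4 of its 7 coding transcripts start further upstream.

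The promoters of 3 of the 4 genes had a RefSeq sequence (GRCh38.p14), of which the 250 bases before the start are shown because the peaks described next lie over them. They are read 5′ to 3′ on the strand of the gene, with capitals for matches on either strand to any of 9 motifs. These were the E-box of MYC and MAX with the letters CACGTG, the NF-Y motif with the letters CCAAT, the motif of SP1 with the letters GGGCGG, that of ETS factors with the letters CGGAAG, that of NRF1 with the letters TGCGCATGC, and the core promoter motif with the letters TATAAA. The others were the erythroid factor motif with the letters GATAAG, the RUNX motif with the letters TGTGGT and the YY1 motif with the letters ATGGCG. The promoters follow.
ANP32B, chr9:97983091-97983340, plus strand: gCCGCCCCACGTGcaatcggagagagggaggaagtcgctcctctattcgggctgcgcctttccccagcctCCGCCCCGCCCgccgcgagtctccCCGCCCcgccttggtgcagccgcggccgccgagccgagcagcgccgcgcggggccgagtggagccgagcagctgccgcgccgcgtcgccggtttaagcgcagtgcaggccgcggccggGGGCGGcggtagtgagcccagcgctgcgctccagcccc
ANP32A, chr15:68820896-68821145, minus strand: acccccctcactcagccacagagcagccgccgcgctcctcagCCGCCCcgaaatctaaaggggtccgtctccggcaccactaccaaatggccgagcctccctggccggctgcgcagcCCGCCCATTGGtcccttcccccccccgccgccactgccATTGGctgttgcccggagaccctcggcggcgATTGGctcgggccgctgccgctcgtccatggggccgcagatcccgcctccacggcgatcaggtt
SET, chr9:128688972-128689221, plus strand: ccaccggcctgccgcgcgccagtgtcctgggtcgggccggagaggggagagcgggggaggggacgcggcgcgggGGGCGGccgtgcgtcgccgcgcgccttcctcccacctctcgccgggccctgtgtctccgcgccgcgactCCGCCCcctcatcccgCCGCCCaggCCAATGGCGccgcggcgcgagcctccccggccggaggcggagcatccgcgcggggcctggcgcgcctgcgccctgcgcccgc

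None of the 3 promoters held TATAAA, and all held the letters of SP1, which were present in 45.0% of the 35116 RefSeq promoters of 300 bases (250 before the start and 50 after). The E-box of ANP32B stood at -243, counted from the start at 0, directly after a GGGCGG match, and 7.26% of all promoters held 1. ANP32A had 3 matches to CCAAT, at -127, -95 and -64, and SET had 1 at -82 that overlapped its ATGGCG match at -79. CCAAT was present in 34.6% of all promoters and ATGGCG in 10.7%. Over the 300 bases, GC content was 74.0% at ANP32B, 71.0% at ANP32A and 81.0% at SET, with 41, 31 and 48 CpG pairs, which put SET at percentile 98.2 of all promoters for CpG. The ANP32A sequence also lies within the annotated span of SPESP1, a sperm protein gene on the opposite strand whose annotation begins at base 68818221. The SET sequence lies inside the annotated gene but in no annotated exon. A match describes letters in the sequence and not binding by the factor.

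All 4 promoters carried H3K27ac in all 4 libraries, and a single peak ran across the start in each. The mark was broad at ANP32B. Its promoter window had 3447 bases under peaks in the Kasumi-1 NC library, 3432 with sh-ANP32B, 3433 in the MV4-11 NC library and 2631 with sh-ANP32B. Values from several libraries are given in this order from here on. In bulk chromatin, fewer cells with the mark and less of it per cell cannot be told apart. The MV4-11 library with sh-ANP32B stood below the other 3, which differed by 15 bases at most. Among genes with any bases at the promoter in the same library (9537, 9057, 7154 and 5727 genes in that order), ANP32B stood at percentiles 93.9, 92.9, 97.7 and 93.8.

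ANP32A, the closest paralog in coverage, had 3306, 3345, 3870 and 2962 bases. Its MV4-11 NC promoter ranked 89 of 7154, the highest rank of any of the 4 genes in any library. ANP32E, the H2A.Z chaperone, had 2335, 2709, 2921 and 2909 bases, and stood at percentiles 77.3, 83.8, 94.8 and 95.8. Coverage at ANP32E was thus larger in both MV4-11 libraries than in either Kasumi-1 library.

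SET went the other way between the lines. Its window had 2693 and 2654 bases in the Kasumi-1 pair of libraries and 1423 and 838 in the MV4-11 pair, of which 838 was the lowest value of the 4 genes. These stood at percentiles 84.3, 82.9, 66.2 and 45.5 of their libraries. In the NC libraries the ratio of MV4-11 to Kasumi-1 was 0.996 at ANP32B, 1.17 at ANP32A, 1.251 at ANP32E and 0.528 at SET, beside a median of 0.669 over all coding genes with bases in both. The 3 ANP32 genes lay above that median and SET below it, with 1 library per line.

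**Figure D1:**
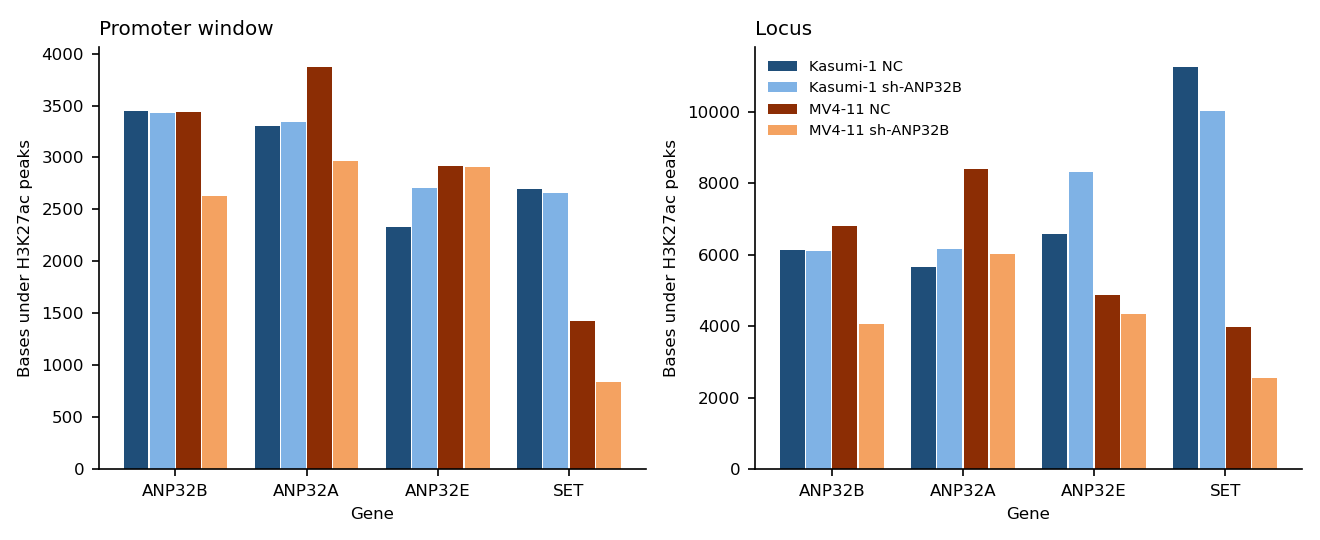
Bases under H3K27ac peaks (vertical axes, from 0) in the promoter window (left) and the locus (right) of each gene, with 1 bar per library and no error bars because there is 1 library per group. ANP32B, ANP32A and SET have shorter MV4-11 sh-ANP32B bars than MV4-11 NC bars in both panels, and the Kasumi-1 pairs of these genes lie closer together.

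The question the knockdown addresses is whether loss of ANP32B goes with less H3K27ac, here at its own gene and those of its relatives. A gene was called lower or higher where the larger number of bases exceeded the smaller by at least 25%, which is the fold meant below. In Kasumi-1, 0 of the 4 promoters were lower and 0 higher, while 21.1% of all genes with bases were lower and 10.8% higher. The log2 ratio of sh-ANP32B to NC was -0.01 at ANP32B, 0.02 at ANP32A, 0.21 at ANP32E and -0.02 at SET, and the median of all genes was 0.00. ANP32E stood at percentile 84.3 of those ratios, and 355 of its 374 added bases were those of 1 gained peak (chr1:150237151-150237505), 1.2 kb upstream of the start. With 1 common minimum width and joining gap for all lists, that peak was left out and the ratio was 0.01.

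In MV4-11, 3 of the 4 promoters were lower (ANP32B, ANP32A and SET) and 0 higher. The background was high there, since 56.6% of all genes with bases were lower and 10.6% higher, so that 3 of 4 is not particular to these genes. The log2 ratio was -0.38 at ANP32B, -0.39 at ANP32A, -0.01 at ANP32E and -0.76 at SET, and the median of all 5412 genes with bases in both libraries was -0.27. Relative to that median the differences were -0.11, -0.11, 0.27 and -0.49, and SET alone stayed past the fold. The ratio of ANP32A moved with the window, from -0.89 within 1000 bases of the start to -0.16 within 5000. At the latter it was no longer past the fold. That of ANP32B moved the other way, from -0.26 within 1000 bases, inside the fold, to -0.57 within 5000. In the window of 2500 bases, the targeted gene differed in MV4-11 by about as much as an ordinary promoter, at percentile 41.8 of the ratios. Among 186 genes with NC bases within 10% of those of ANP32B, the median was closer to 0, at -0.15, and ANP32B stood at percentile 25.5. Among 699 genes with NC bases like those of SET it was -0.43, and SET stood at percentile 32.3. H3K27ac over a start is not a measure of the transcript, and a hairpin acts on the transcript, so these values do not check the knockdown.

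**Figure D2:**
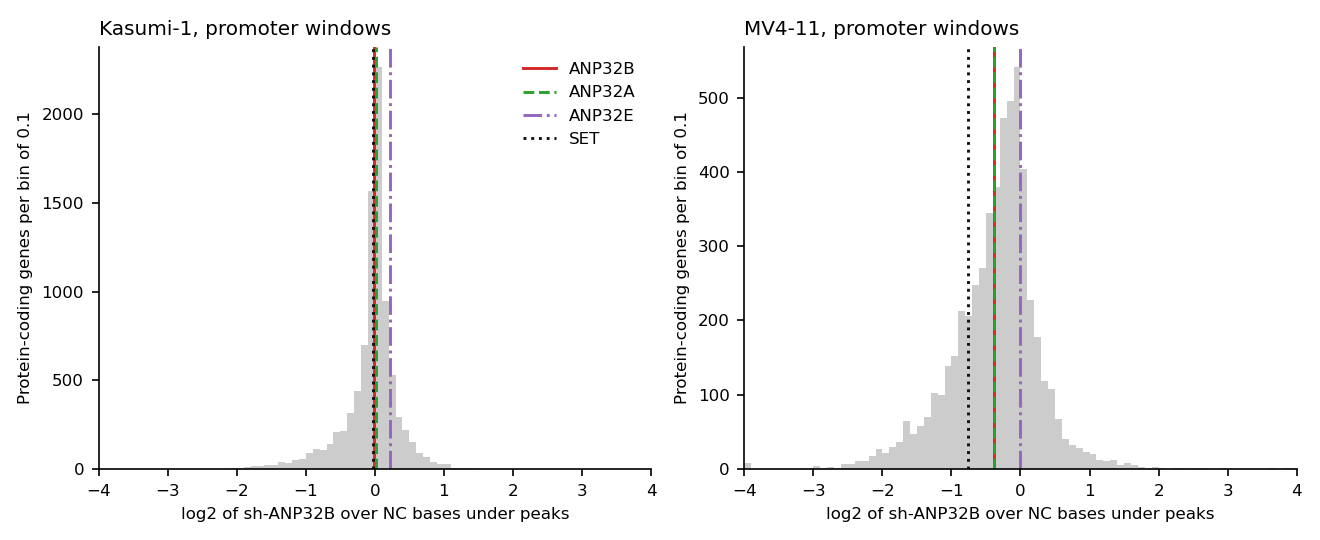
Number of protein-coding genes (vertical axes) by the log2 ratio of sh-ANP32B to NC bases under promoter peaks (horizontal axes), for Kasumi-1 (left) and MV4-11 (right), with a line at each of the 4 genes and ratios beyond the axis placed in the last bin. In Kasumi-1 the lines lie near 0 except ANP32E at 0.21, and in MV4-11 ANP32B and ANP32A coincide at -0.38 and -0.39 inside the bulk of the genes.

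The edges of the peaks showed where the bases were lost. At ANP32B in Kasumi-1, the peak reached 946 bases upstream and 3014 downstream of the start in NC, and 931 and 2994 in sh-ANP32B. In MV4-11, the reach was 932 upstream and 2976 downstream in NC, and 613 and 2017 in sh-ANP32B. The downstream edge, inside intron 1, accounted for most of the difference, with a change of -959 bases against -319 at the upstream edge. Among 3008 genes whose start was covered in both MV4-11 libraries, the median change was -49 bases upstream and -62 downstream. ANP32B stood at percentiles 16.8 and 4.06 of these changes. The 3008 genes had peaks of any width, and a narrow peak has fewer bases to lose. The ANP32B peak of MV4-11 NC was wide, at percentile 97.6 of its list, and peaks of like width were not compared. The E-box and the GGGCGG matches of ANP32B stayed under the peak in every library.

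ANP32A had another shape of change. The Kasumi-1 peak reached 805 bases upstream and 3861 downstream in NC, and 844 and 3842 in sh-ANP32B. The MV4-11 NC peak (chr15:68817308-68822264, 4957 bases) spanned 1369 bases upstream and 3587 downstream. In its place MV4-11 sh-ANP32B had 2 peaks, of 3972 and 457 bases, and the first ended 4 bases upstream of the start while the second lay beyond -923, counted from the start at 0. The downstream side was 380 bases longer in sh-ANP32B than in NC, at percentile 97.3. The stretch without a peak holds all the marked matches of the ANP32A sequence shown above, its 3 CCAAT matches among them.

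At ANP32E the upstream reach was 420 bases in MV4-11 NC and 408 in sh-ANP32B, and the downstream reach 3048 and 2735, so that nearly all of the difference lay beyond the window. In Kasumi-1 the reach of that peak was 362 and 389 bases upstream and 1972 and 1964 downstream, and a second peak of 585 and 623 bases stood apart in intron 1, where the MV4-11 peak was continuous. SET in MV4-11 was shorter on both sides, from 1028 to 672 bases upstream and from 394 to 165 downstream. The Kasumi-1 peak of SET reached 1266 and 1224 bases upstream and 1426 and 1429 downstream, so the MV4-11 mark ended nearer to the start on the downstream side in particular.

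**Figure D3:**
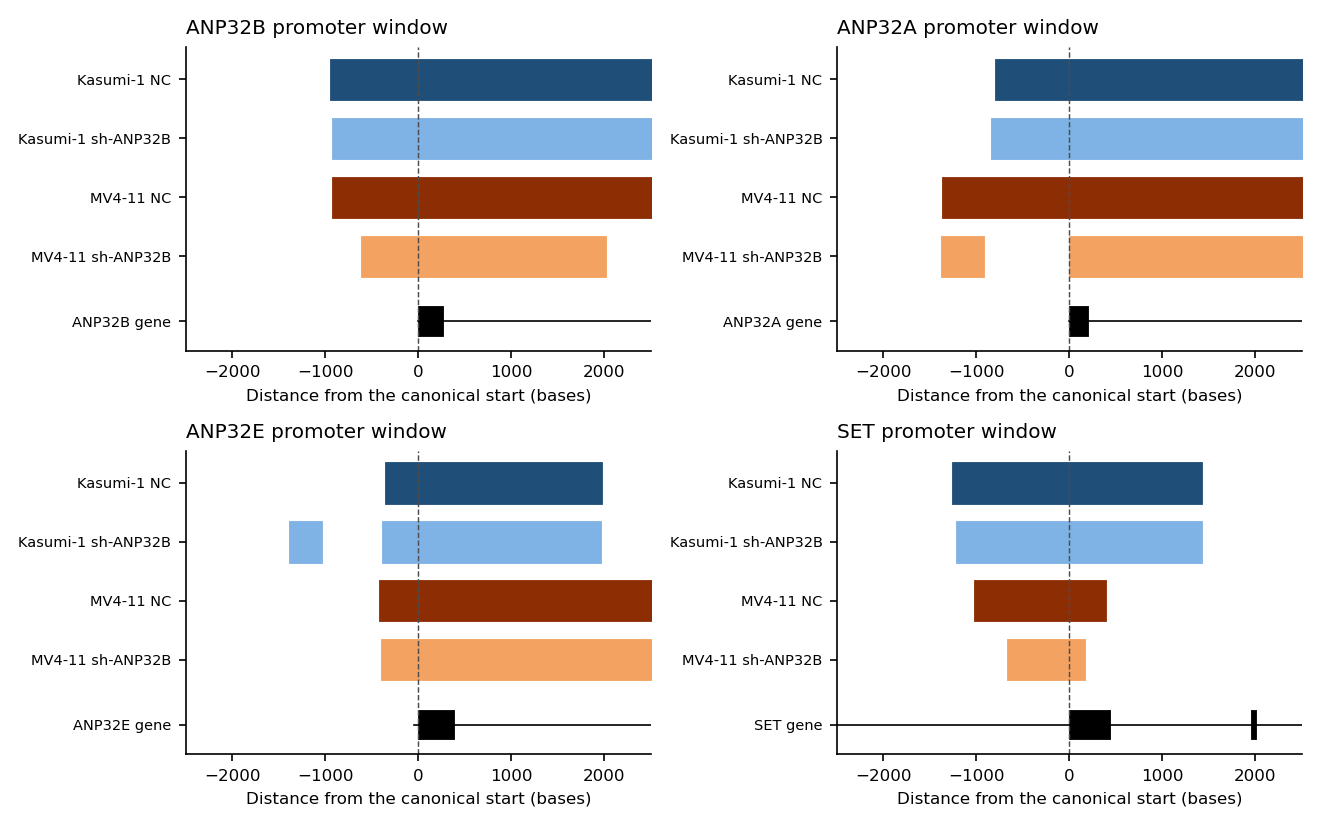
H3K27ac peaks (bars, 1 row per library) in the promoter window of each gene, with the distance from the canonical start in bases on the horizontal axis, transcription to the right and exons as black boxes. The MV4-11 sh-ANP32B peak of ANP32B ends at 2017 bases, inside the window, whose downstream side the other libraries fill. That of ANP32A breaks between -4 and -923.

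Over the whole loci, 3 of the 4 genes were within the fold in Kasumi-1. ANP32B had 6145 bases under 3 peaks in NC and 6096 under 3 with sh-ANP32B. ANP32A had 5650 and 6173 bases, ANP32E 6589 and 8322, and SET 11255 and 10032. ANP32E was called higher and 0 of the 4 lower, beside 11.4% of all genes higher and 12.4% lower over loci of the same kind. Its log2 ratio was 0.34 (median of all genes 0.02), and it was within the fold at 0.31 relative to that median, at 0.27 with a common minimum width and joining gap and at 0.09 with 100 kb on each side.

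In MV4-11, ANP32B had 6796 bases under 4 peaks in NC and 4062 under 3 in sh-ANP32B. ANP32A had 8414 and 6026 bases, ANP32E 4867 and 4352, and SET 3988 and 2546. ANP32B, ANP32A and SET were called lower and 0 higher, beside 54.1% of all genes lower and 10.5% higher. The log2 ratios were -0.74, -0.48 and -0.65 at these 3 genes and -0.16 at ANP32E, with a median of -0.34. Relative to that median, ANP32B alone stayed past the fold, at -0.40, and it stood at percentile 23.8 of all loci and 18.9 of the 900 loci with like NC bases. Every base under a sh-ANP32B peak of the ANP32B locus in MV4-11 also lay under an NC peak, 4062 of 4062.

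Peaks of a locus without an overlapping peak in the other library of the line were called lost (NC) or gained (sh-ANP32B). In Kasumi-1, 1 of the 18 NC peaks in the 4 loci was lost and 2 of the 19 sh-ANP32B peaks were gained, beside 9.00% lost and 13.2% gained over all peaks. In MV4-11, 5 of 17 were lost and 2 of 15 gained, beside 29.1% and 17.7%. The shares in the loci lay near those of all peaks in MV4-11, and the lost peaks there were all in the first introns of ANP32B and ANP32A.

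Outside its promoter the ANP32B locus held few peaks. The 50 kb upstream of the gene had no peak but the upstream end of the promoter peak itself in any library, and the nearest peak in that direction ended 60.3 kb away in Kasumi-1 NC, 60.1 kb in Kasumi-1 sh-ANP32B and 60.5 kb in both MV4-11 libraries. HEMGN, a gene of blood cell development whose start lies 45.2 kb upstream, had 0 bases at its promoter in all 4. Downstream, NANS, which encodes sialic acid synthase, had 1682, 1691, 705 and 607 bases. Between ANP32B and NANS, about 62 kb from the start of ANP32B and outside any annotated gene, a peak of 502, 479, 1401 and 824 bases was present. It was the only distal peak of the locus in all 4 libraries.

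The other distal peak of ANP32B was in intron 1, 9.9 kb from the start, and was present in MV4-11 NC alone (chr9:97992898-97993678, 781 bases). The nearest MV4-11 sh-ANP32B peak lay 7539 bases away. The central 300 bases of this lost peak are shown on the plus strand, with motif matches in capitals, since it was the 1 peak of the ANP32B locus lost after knockdown.
ANP32B intron 1 element, chr9:97993139-97993438: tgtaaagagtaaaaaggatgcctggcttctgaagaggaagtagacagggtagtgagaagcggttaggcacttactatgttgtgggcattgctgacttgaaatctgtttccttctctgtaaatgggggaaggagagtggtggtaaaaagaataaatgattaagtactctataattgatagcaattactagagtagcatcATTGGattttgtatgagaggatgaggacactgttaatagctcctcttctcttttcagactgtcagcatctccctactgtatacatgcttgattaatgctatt
It held 1 match to CCAAT, as did 29.7% of stretches of 300 bases at the centres of MV4-11 NC peaks outside promoter windows, and its GC content was 39.3%.

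Intron 1 of ANP32A, which fills most of the gene, differed between the lines and within MV4-11. Each Kasumi-1 library had 1 intronic peak, of 983 bases in NC and 1486 in sh-ANP32B, 25 kb from the start. MV4-11 NC had 5 intronic peaks, of 446 to 1086 bases and 19.1 to 31.1 kb from the start, of which 4 had no partner in sh-ANP32B. MV4-11 sh-ANP32B had 3, of which 1 overlapped an NC peak and 2, of 331 and 449 bases, did not. These 2 lay 675 and 570 bases from the nearest NC peak, so that lost and gained peaks lay within the same stretch of the intron. The downstream 50 kb of ANP32A had 0 peaks in every library, and the nearest peak upstream of the promoter window was 483 kb away or more.

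ANP32E had more distal peaks in Kasumi-1 than in MV4-11. Both Kasumi-1 libraries had peaks about 49 and 59 kb downstream of the start that neither MV4-11 library had, of 358 and 885 bases in NC and 610 and 1027 in sh-ANP32B. Kasumi-1 sh-ANP32B also had a gained peak of 511 bases 21.4 kb from the start. Of its neighbours, CA14, a carbonic anhydrase gene, C1orf54 and CIART, a gene of the circadian clock, had 0 bases in all libraries. APH1A, a subunit of gamma-secretase, had 1675, 1708, 814 and 663 bases.

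A peak just beyond the end of ANP32E, about 22 kb from its start and outside any annotated gene, was present in all 4 libraries, with 751, 1134, 584 and 545 bases. The 215 bases common to the 4 peaks are shown on the plus strand, because they hold 5 different motifs of the 9 searched.
ANP32E downstream element, chr1:150213572-150213786: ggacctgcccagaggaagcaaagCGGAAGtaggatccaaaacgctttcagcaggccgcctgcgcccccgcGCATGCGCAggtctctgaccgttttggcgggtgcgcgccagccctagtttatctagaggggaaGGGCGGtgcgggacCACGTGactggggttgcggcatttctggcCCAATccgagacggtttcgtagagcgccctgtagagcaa
From the left the capitals mark the letters of ETS factors, of NRF1 (on the opposite strand), of SP1, of the E-box and of NF-Y. Of 17335 centres of MV4-11 NC peaks outside promoter windows, cut to the same length, 4.34% held the ETS letters, 0.0865% those of NRF1, 7.76% those of SP1, 3.84% the E-box and 22.3% those of NF-Y. The stretch had 19 CpG pairs and a GC content of 62.8%. Because it was picked for its motifs, these shares do not show how unusual it is. The stretch also begins at the first base of the MV4-11 NC peak, while the shares are of peak centres.

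The SET locus had the most bases of the 4 loci in Kasumi-1 and the fewest in MV4-11. Over or near the alternative starts, upstream of the canonical start, both Kasumi-1 libraries had 2 peaks, with 2556 and 2414 bases. Both MV4-11 libraries had 1 peak there, with 1083 and 652. In Kasumi-1, 1 of the 2 peaks, of 2107 and 1724 bases, lay at the alternative starts. The other, of 449 and 690 bases, lay between those starts and the canonical one. The 4 upstream coding starts, at -5798 to -4139 from the canonical one, all lay under a peak in both Kasumi-1 libraries. In MV4-11 NC and sh-ANP32B, 0 of these 4 starts were covered, although the peak lay between them. The NC peak ran from -5329 to -4247, close to the starts at -5391 and -4139, and the sh-ANP32B peak from -4918 to -4267. The ratio of upstream to canonical bases was 0.949, 0.910, 0.761 and 0.778. The Kasumi-1 ratios count both upstream peaks, so they are not ratios for the alternative starts alone. In Kasumi-1 the peak at those starts had 2107 and 1724 bases, beside 2693 and 2654 in the canonical window. The ratios therefore do not show a smaller block at those starts in MV4-11.

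The neighbours of SET also had fewer bases in MV4-11 NC than in Kasumi-1 NC, as did NANS beside ANP32B and APH1A beside ANP32E. DYNC2I2, a dynein subunit gene, had 2012, 1648, 967 and 741 bases. ZDHHC12, a palmitoyltransferase gene, had 2511 and 2396 bases in Kasumi-1 and 0 in both MV4-11 libraries. PKN3, a protein kinase gene, had 418, 0, 0 and 0 bases, and this was the lost peak of Kasumi-1.

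**Figure D4:**
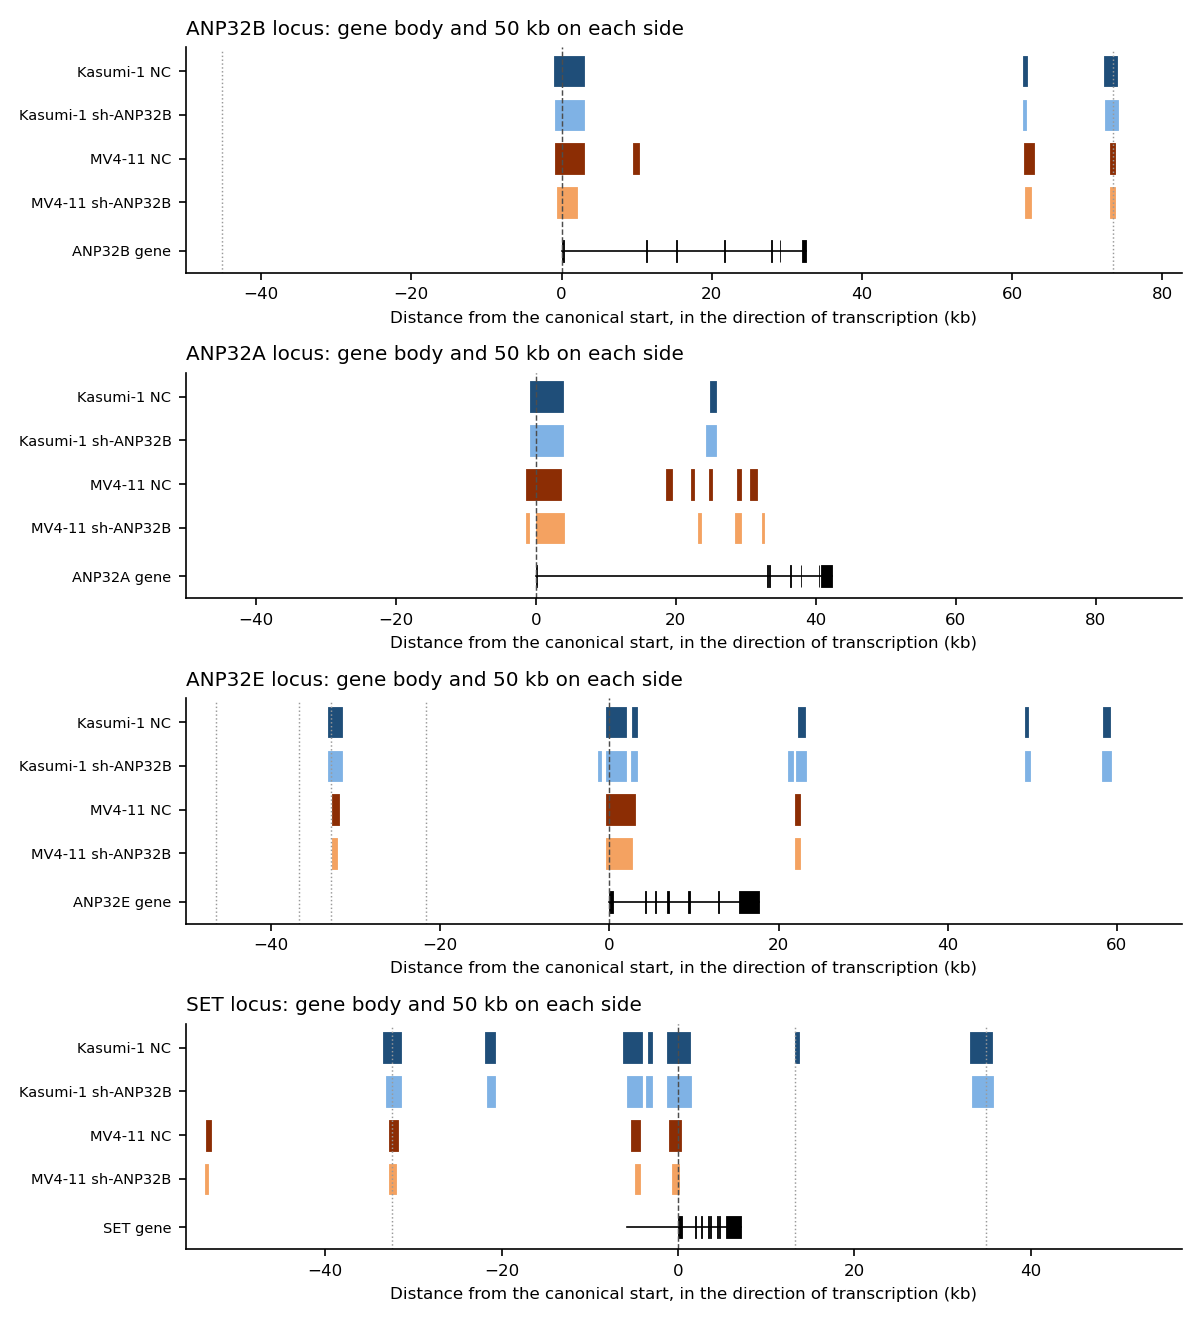
H3K27ac peaks (bars, 1 row per library) over each locus, with the distance from the canonical start in kb on the horizontal axis, exons as black boxes and the starts of other coding genes as dotted lines. The ANP32B rows are empty upstream of the promoter peak, the MV4-11 rows of ANP32A hold several short intronic peaks at different places, and the SET rows have fewer and shorter peaks in MV4-11.

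Positions under peaks were compared by the Jaccard index, the bases covered in both libraries over those covered in either. Between NC and sh-ANP32B of Kasumi-1 it was 0.969 at ANP32B, 0.901 at ANP32A, 0.789 at ANP32E and 0.828 at SET, beside 0.783 over the genome. In MV4-11 it was 0.598, 0.463, 0.876 and 0.582 in the same order, beside 0.582. ANP32A had the least like pair in MV4-11 and ANP32E the most like. Between the NC libraries of the lines the index was 0.625, 0.516, 0.490 and 0.295, beside 0.396, with SET the 1 gene below the genome.

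Peaks reaching outside promoter windows were joined into domains at gaps of at most 12.5 kb and ranked by summed width, since clusters of H3K27ac peaks near ANP32B were a point of interest of the study. The highest domain of the ANP32B locus ranked 1497 of 7694, 1612 of 8087, 1019 of 9997 and 5591 of 9273. The last rank follows from the construction, since the narrower promoter peak of that library fell wholly inside the window and was left out, and with no peak left out the ranks were 2005, 2150, 1253 and 2292. The domains of ANP32A ranked 1223, 1313, 926 and 1045, and those of SET 2370, 2745, 5289 and 6463, or 1226, 1527, 3035 and 4494 with no peak left out. For ANP32E the ranks were 4280, 3758, 1565 and 1467. Its Kasumi-1 promoter peaks also fell wholly inside the window and were left out, while those of MV4-11 were kept. With no peak left out the ANP32E ranks were 2973, 2677, 1940 and 1789.

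The coverage of the promoter window, joined over the 4 libraries, was also compared between genes by the Jaccard index, as a description. ANP32B was most like the histone gene H2AC18 (0.947), HDGF, a growth factor gene (0.940), and ANPEP, which encodes the myeloid surface protein CD13 (0.927). ANP32A was most like H2AC21 (0.882), IL17RA (0.876) and H2AC18 (0.875), and ANP32E most like PTK2B (0.872), E2F2 (0.868) and LRRC8D (0.865). SET was most like GTF3C6 (0.930), CIAO1 (0.877) and BAG4 (0.861). Within the family the index was 0.845 for ANP32B and ANP32A, 0.728 for ANP32B and ANP32E, 0.710 for ANP32A and ANP32E, and 0.390 to 0.499 for SET with the others. H2AC18 had 3434, 3418, 3492 and 3269 bases, so its MV4-11 pair lay closer together than that of ANP32B.

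The genes that work with the family were read from 8 lists of 52 genes, at their promoter windows. In Kasumi-1, 47 had bases, of which 4 were lower and 5 higher, with a median log2 ratio of 0.02, beside 21.1% lower and 10.8% higher of all genes. In MV4-11, 37 had bases, of which 21 were lower and 2 higher, with a median of -0.35, beside the 56.6% lower and the median of -0.27 of all genes. Each median is over the genes with bases in both libraries of the line. Genes with bases in only 1 library of a line are thus counted among those called but not in the median. Lower in both lines were 3 of the 48 with bases in any library, and 1 was higher in both, beside 6.89% and 0.931% of all genes with bases.

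CREBBP, an acetyltransferase of H3K27 itself, was 1 of these 3, with 2115 and 579 bases in the Kasumi-1 pair and 1359 and 636 in the MV4-11 pair. Its paralog EP300 had 2095, 2089, 1963 and 1670 bases and was within the fold in both lines. The other two were PPP2CB, a catalytic subunit of PP2A, with 706, 0, 625 and 418 bases, and VPS72, which binds H2A.Z, with 1041, 631, 424 and 0. IGBP1, a binding partner of PP2A, was higher in both, with 726, 1126, 0 and 319 bases. PPP2CA, the other catalytic subunit, had 1657, 1557, 1233 and 1297, and PTPA, an activator of PP2A, 4529, 4409, 425 and 369.

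In MV4-11, 8 of 11 other histone chaperones were lower, with a median of -0.96, and 6 of 8 genes of H2A.Z and its exchange complexes, with a median of -0.39, beside 56.6% of all genes lower. Both medians are over the genes with bases in both MV4-11 libraries, which are fewer than the 11 and the 8. HIRA, a chaperone of H3.3, had 1781 bases in MV4-11 NC and 918 in sh-ANP32B, NAP1L4 1731 and 582, the H2A.Z gene H2AZ2 2049 and 485, and KAT5, the acetyltransferase of an exchange complex, 1312 and 502. In Kasumi-1, 0 of 10 of these chaperones and 1 of 13 of the H2A.Z genes were lower, and 0 and 2 were higher, beside 21.1% and 10.8% of all genes. APAF1, the scaffold of the apoptosome, had 2002 and 891 bases in MV4-11 and 2198 and 2244 in Kasumi-1.

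Of the SET complex partners, 0 of 3 with bases were called in MV4-11, beside 56.6% of all genes lower and 10.6% higher. In Kasumi-1, 0 of 4 were lower and 1 higher, beside 21.1% and 10.8%. HMGB2, a chromatin protein, had 2975 and 2726 bases in MV4-11, and the nuclease gene TREX1 1832 and 2150. XPO1, the exporter of proteins from the nucleus, had 1418 and 335 bases in MV4-11 and 2882 and 2974 in Kasumi-1, and ELAVL1, an RNA-binding protein gene, 0 in both MV4-11 libraries and 1937 and 2316 in Kasumi-1. The myeloid factor gene SPI1 was within the fold in both lines.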

How the data were processed

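H3K27ac CUT&Tag peaks were read from 4 lists, 1 per group, for Kasumi-1 and MV4-11 with NC or sh-ANP32B. The 2 IgG libraries were not analysed here. Per the labels, the authors aligned to hg38 with Bowtie2 2.4.4 and called peaks with MACS3 3.0 (the submitters' processing notes). The methods of the study name other versions and MACS2, with PCR duplicates removed, replicates merged and a q-value of 0.01. Whether IgG served as control for the calls is not given in the sources used here. The deposited lists give positions and widths in bases only. The smallest peak was 275 to 357 bases by list, so that each list had its own minimum width and joining gap.

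Bases under peaks were summed in windows of GENCODE v44 genes with Python 3.11.15, after a test on simulated peaks. A change was called at a difference of 25% of the smaller value, with no test. A lost or gained peak had 0 shared bases. Members, lists and motifs were chosen with earlier results of these data known. Genes named beside the members were neighbours in a locus, the 3 most like promoters, list genes called in the same direction in both lines and the 2 of each list with the most NC bases. Alternative windows, widths, folds and overlaps were tried. Protein sequences were not used here. Some genes of the lists and some sequences are not reported here.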

Additional observations from a re-analysis of the deposited data

Results flagged for a closer look

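The ratios of ANP32A and ANP32E had opposite signs in the lines, although at the promoter only that of ANP32A in MV4-11 passed the fold, and over the locus only those of ANP32A in MV4-11 and ANP32E in Kasumi-1. For ANP32A the log2 ratio of sh-ANP32B to NC was 0.02 in Kasumi-1 and -0.39 in MV4-11 at the promoter, and 0.13 and -0.48 over the locus. For ANP32E it was 0.21 and -0.01 at the promoter, and 0.34 and -0.16 over the locus. Relative to the median of all genes, ANP32E in MV4-11 stood at 0.27 and 0.18, the same sign as in Kasumi-1. The Kasumi-1 promoter value of 0.21 was 0.01 with 1 common minimum width and joining gap for all lists, and also with the 20000 widest peaks and with peaks of at least 1000 bases. Whether the lines differ in this was not tested, as no group had a second library. The median of all genes was also lower in MV4-11 than in Kasumi-1, -0.27 against 0.00 at promoters and -0.34 against 0.02 over loci.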

How the results depend on the processing

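No called value changed direction under the alternatives run. At the MV4-11 promoters, the count of 3 genes lower became 1 relative to the median of all genes and 1 at a fold of 1.5, and 2 in windows of 1000 bases (without ANP32B) and of 5000 bases (without ANP32A) to each side. The MV4-11 promoter ratio of ANP32B was -0.26 in a window of 1000 bases and -0.11 relative to the median, both within the fold, and -0.38 was within a fold of 1.5. In a window of 5000 bases the ratio of ANP32B was -0.57, past the fold. Over loci, the 1 gene higher in Kasumi-1 became 0 with 357 bases as minimum width and joining gap of all lists, relative to the median, at a fold of 1.5 and with 100 kb to each side, and 2 with peaks of at least 1000 bases. The 3 genes lower in MV4-11 over loci became 1 relative to the median. Gained peaks in Kasumi-1 numbered 1 at that common width and gap and 4 with 100 kb, and in MV4-11 1 at that common width and gap and 4 with an overlap of 50% of each peak. Of the counts, 60 stayed within 1.5 times and 12 moved further, and of the domain ranks 28 and 4. Most of the 60 were counts of 0 that stayed at 0, so they say little about the counts above 0. No paired analysis was possible because each group had 1 library and no replicate numbers. Depth is unknown, a peak list cannot show weaker or stronger acetylation under a peak of the same width, and differences between NC and sh-ANP32B cannot be told apart from differences between single libraries.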
